A study of Mus musculus with 2 samples.

Results

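Mural cells, the pericytes and vascular smooth muscle cells that wrap blood vessels, were chosen in fetal bone marrow of both libraries by summed UMIs (unique molecule counts) of Rgs5, Notch3 and Myh11. A cell was selected with 3 or more UMIs of these genes together and 0 UMIs of the endothelial genes Cdh5 and Pecam1. By this rule 364 of 12356 cells were selected, 178 of 5736 cells (3.10%, 2.67 to 3.59) in the WT library and 186 of 6620 (2.81%, 2.43 to 3.24) in the Bmx-CreER Wls library. The 116 WT and 124 Bmx-CreER Wls members with a UMI of Myh11, which is a gene of the rule, or of Kcnj8 or Abcc9, which are not, are called the core members here. Kcnj8 or Abcc9 had a UMI in 107 and 98 of them. The other 62 members in each library had far fewer contractile transcripts than the core members, which left the label open for them, so the whole set is called the selected cells.

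Pericytes sit in the basement membrane of capillaries and depend on PDGF receptor beta signalling from the endothelium. Smooth muscle cells surround arteries, carry the actin and myosin apparatus that sets vessel tone, and rely on Notch3. In bone marrow, perivascular cells are also known as a source of Kitl and Cxcl12, factors that maintain haematopoietic stem cells.

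The study measured whole transcriptomes of single cells from fetal bone marrow on the BD Rhapsody platform. Both groups were embryos at E18.5, and per the methods all animals were kept on a predominantly C57BL/6 background. Cells committed to haematopoietic lineages were depleted with magnetic beads. The genotype was WT in one library and Bmx-CreER Wls in the other, in which a tamoxifen-dependent Cre under the arterial endothelial Bmx promoter deletes Wls, the carrier that Wnt ligands need for secretion. Per the methods tamoxifen was given to pregnant dams, C57BL/6 animals served as wild type, and littermates without Cre were the controls of this mutant, but which of these made the WT library, and whether it was treated, is not stated. Recombination in the selected cells was not measured.

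The WT library held 5998 barcodes with 22708005 UMIs, and the Bmx-CreER Wls library held 6825 barcodes with 24704991 UMIs. Barcodes were kept when they held over 200 but under 5000 genes, with mitochondrial UMIs below 30%, and 0 of the 262 WT and 205 Bmx-CreER Wls barcodes left out met the rule for mural cells. The selected cells had a median of 2941.5 UMIs (1077 to 12952) in WT and 3673 (915 to 13187) in Bmx-CreER Wls, with 565385 and 735479 UMIs in total. The libraries shared 49 barcodes, of which 1 belonged to a WT member and 0 to a Bmx-CreER Wls member. With 1 library per genotype there were no replicates and no test between genotypes. Values in parentheses are exact 95% intervals (Poisson for levels, Clopper-Pearson for shares, conditional binomial for ratios), which cover counting error only. Levels are CPM, the summed UMIs of a gene scaled to 1000000 UMIs over a whole group of cells.

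The selected cells were chosen by their Rgs5, Notch3 and Myh11 counts, so these genes are a description and not a finding. Rgs5, a regulator of G protein signalling of mural cells (chr1:169655501-169695813, plus strand, GRCm38), was at 5556 (5363 to 5753) CPM in WT and 3444 (3311 to 3581) CPM in Bmx-CreER Wls, in 159 and 154 selected cells. Notch3, the Notch receptor of mural cells (chr17:32120820-32166852, minus strand), was at 1567 (1466 to 1674) and 1284 (1203 to 1368) CPM, in 132 and 133 cells. Myh11, the smooth muscle myosin heavy chain (chr16:14194535-14291372, minus strand), was at 290.1 (247 to 338) and 508 (458 to 563) CPM, in 46 and 64 cells. The summed count had a median of 13.5 UMIs in WT and 15 in Bmx-CreER Wls. Rgs5 together with Notch3 chose 71 WT and 51 Bmx-CreER Wls members, all 3 genes 42 and 50, Rgs5 alone 46 and 53, Notch3 alone 15 and 18, Notch3 with Myh11 4 and 14, and Myh11 alone 0 and 0. The 18 WT and 26 Bmx-CreER Wls cells just inside the threshold, at a sum of 3, had Rgs5 at 483.6 and 385.7 CPM and Acta2, the smooth muscle actin, at 55.8 and 234.8 CPM. The 53 and 52 cells just outside, at a sum of 2, had Rgs5 at 156.0 and 207.7 CPM and Acta2 at 105.6 and 0 CPM. At a sum of 20 or more, 68 of 70 WT and 76 of 77 Bmx-CreER Wls cells were core members. A further 13 of 191 WT cells and 7 of 193 Bmx-CreER Wls cells had reached the sum but carried Cdh5 or Pecam1 UMIs and were left out.

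**Figure D1:**
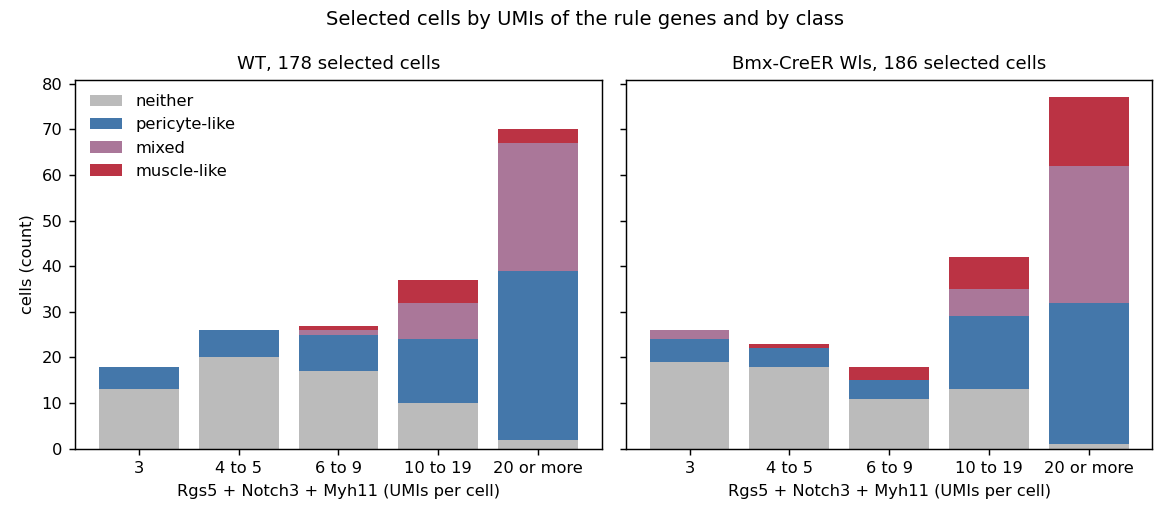
Number of selected cells in each library by the summed UMIs of Rgs5, Notch3 and Myh11, stacked by class. Nearly all cells at 20 or more UMIs had a UMI of Myh11, Kcnj8 or Abcc9, and the cells with none of these genes (neither) sat mostly at low sums.

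Core members fell into classes by Myh11 against Kcnj8 and Abcc9, the pore and the sulphonylurea receptor of the ATP-sensitive potassium channel of pericytes, whose genes lie side by side (chr6:142564837-142571614, minus strand, and chr6:142587862-142702315, minus strand). Cells with Myh11 and neither channel gene, called muscle-like, were 9 of 178 in WT (5.06%, 2.34 to 9.38) and 26 of 186 in Bmx-CreER Wls (13.98%, 9.34 to 19.8). Cells with Kcnj8 or Abcc9 and no Myh11, called pericyte-like, were 70 (39.3%, 32.1 to 46.9) and 60 (32.3%, 25.6 to 39.5). Mixed cells with both kinds of UMI were 37 (20.8%, 15.1 to 27.5) and 38 (20.4%, 14.9 to 26.95). Members with none of the 3 genes (neither in the plots) were 62 (34.8%, 27.9 to 42.3) and 62 (33.3%, 26.6 to 40.6). The muscle-like share was higher in Bmx-CreER Wls, with intervals that just overlapped, and the other class intervals overlapped widely. Without members that carried 3 or more UMIs of the haematopoietic, chondrocyte, osteoblast, skeletal muscle or Schwann list, called members with other cell type UMIs here, it was 8 of 146 in WT and 13 of 136 in Bmx-CreER Wls. The tendon list was not part of that removal, and 1 of 9 WT and 16 of 26 Bmx-CreER Wls muscle-like cells had 3 or more of its UMIs, at 229.4 and 882.3 CPM in this class.

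The class limit is 1 UMI, and part of the cells sat on it. Myh11 was at 1 UMI in 2 of 9 WT and 2 of 26 Bmx-CreER Wls muscle-like cells, and in 9 of 37 and 12 of 38 mixed cells. Kcnj8 and Abcc9 together were at 1 UMI in 5 of 70 and 8 of 60 pericyte-like cells. With members thinned to 1000 UMIs each (1 Bmx-CreER Wls member was too shallow), muscle-like cells were 7.30% (3.95 to 12.2) in WT and 15.1% (10.3 to 21.1) in Bmx-CreER Wls. Mixed cells were then 8.43% and 5.95%, so most of the mixed class depended on depth. The class limit therefore drew no sharp border between muscle-like and pericyte-like cells, and whether the cells form a range was not tested. Muscle-like cells had a median of 21 Acta2 UMIs in WT and 44.5 in Bmx-CreER Wls, against 0 and 1 in pericyte-like cells. Rgs5 had a median of 8 and 1 UMIs in muscle-like cells, where 3 of 9 and 11 of 26 had none, against 17 and 13.5 in pericyte-like cells.

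**Figure D2:**
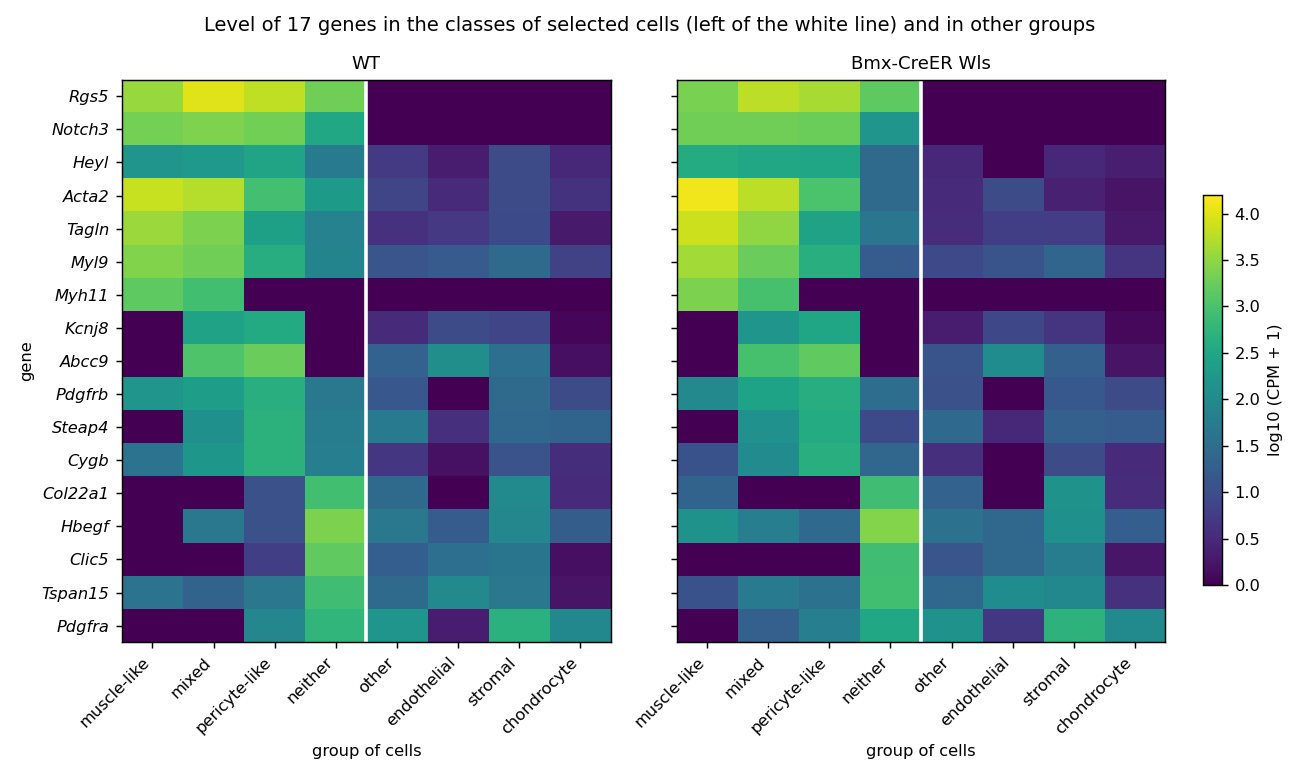
Levels (log10 of CPM plus 1) of 17 genes in the classes of selected cells and in other, endothelial, stromal and chondrocyte cells of each library. The genes that chose the members are at 0 in the comparison groups by definition, and Acta2 and Tagln were lowest among the classes in the cells with no class gene.

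Against all kept cells without a UMI of the rule genes (5297 in WT, 6156 in Bmx-CreER Wls, called other cells), the selected cells stood out by contractile genes, the potassium channel, basement membrane genes and a few niche factors. Of 6236 genes with 500 or more UMIs over both groups, 311 (4.99%) were at least 2 times as high in the selected cells of both libraries and 382 were at most 0.5 times as high, among them Cdh5 and Pecam1 by the rule. The median ratio over these genes was 0.969 in WT and 1.03 in Bmx-CreER Wls. With core members alone 312 of 6196 genes were higher, 234 of them shared with the 311, an alternative chosen after seeing the data.

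The contractile apparatus was the group with the highest ratios: 9 of its 10 measured genes (of 24 listed) were higher in selected cells, with a median ratio of 12.6 in WT and 16.5 in Bmx-CreER Wls. Acta2 (chr19:34241090-34255590, minus strand) was at 2110.1 (1992 to 2233) CPM in selected WT cells and 3312 (3182 to 3446) in Bmx-CreER Wls cells, 325 (272 to 392) and 1439 (1094 to 1932) times the level in other cells. Tagln, the actin-binding transgelin (chr9:45929619-45936058, minus strand), was at 898 (822 to 980.1) and 1759 (1665 to 1858) CPM, ratios of 299 (229.6 to 396) and 736 (561 to 985). Myl9, the regulatory light chain of smooth muscle myosin (chr2:156775420-156781658, plus strand), was at 792 (721 to 869) and 1058 (985 to 1135) CPM, ratios of 67.6 (57.7 to 79.4) and 141 (119 to 167). Cells outside the selection that carried rule gene UMIs held such transcripts too, with Acta2 at 920.8 and 96.9 CPM in those left out for Cdh5 or Pecam1. Mylk, the kinase that phosphorylates this light chain (chr16:34745210-35002420, plus strand), was at 1908 (1796 to 2026) and 1880.4 (1783 to 1982) CPM, ratios of 43.5 (39.8 to 47.6) and 49.1 (45.1 to 53.5). Tpm2, a tropomyosin of the thin filament, was at 812 and 1202 CPM, ratios of 16.2 (14.4 to 18.1) and 24.2 (22.1 to 26.4). With core members alone the Bmx-CreER Wls ratios were 2191 for Acta2, 1114 for Tagln, 213.5 for Myl9 and 74.5 for Mylk, since members with few of these transcripts were then left out. Actg2, the enteric smooth muscle actin, was at 198 (163 to 238) and 238 (204 to 276) CPM, and Ppp1r14a, an inhibitor of myosin phosphatase, at 186 (152 to 225) and 226 (193 to 263) CPM. Cnn1, calponin of mature smooth muscle, had only 23 and 46 UMIs, 120 (49.9 to 331) and 353 (129 to 1351) times the level in other cells. The exception on the list was Tagln2, the transgelin of non-muscle cells.

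Both strands of the 250 bases before the start of each gene (RefSeq, GRCm38.p6) were searched for a CArG box. This element, which serum response factor binds in many contractile genes, was chosen because these genes were high together. It was in 3 of the 20 contractile genes with an entry (15%), 1 of 16 genes of the pericyte list (6.25%, Trpc6) and 2 of 10 of the genes with the highest ratios in selected cells (20%), against 439 of all 27025 genes (1.62%). Of the genes named for muscle-like cells 1 of 7 held it (Myl9), and of those named for pericyte-like cells 0 of 6. Entries were missing for Actg2, Myh11 and Tagln, among others, of the contractile genes. A match is a description of the letters and not a shown binding site. Shown are 120 bases around each match in Myl9, in Myl6 (the essential myosin light chain), in Vcl (the adhesion protein vinculin) and in Hopx (a homeodomain protein without DNA binding), in the direction of the gene and with the CArG box in capitals. The stretches lie at chr2:156775248-156775367 (plus strand), chr10:128493010-128493129 (minus strand), chr14:20929148-20929267 (plus strand) and chr5:77115142-77115261 (minus strand). The box begins 161, 50, 227 and 83 bases before the start of Myl9, Myl6, Vcl and Hopx. These starts are those of the RefSeq promoters and can differ from the GENCODE gene positions given elsewhere.
Myl9: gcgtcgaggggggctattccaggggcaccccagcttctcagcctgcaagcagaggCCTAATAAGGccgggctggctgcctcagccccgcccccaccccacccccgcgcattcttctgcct
Myl6: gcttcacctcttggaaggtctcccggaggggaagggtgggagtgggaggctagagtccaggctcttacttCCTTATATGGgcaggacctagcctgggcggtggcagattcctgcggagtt
Vcl: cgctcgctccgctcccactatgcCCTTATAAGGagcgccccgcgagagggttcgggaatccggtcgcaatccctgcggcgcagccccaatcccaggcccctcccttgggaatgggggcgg
Hopx: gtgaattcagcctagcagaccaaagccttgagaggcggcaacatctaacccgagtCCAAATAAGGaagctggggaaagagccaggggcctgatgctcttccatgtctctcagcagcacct

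Beyond the contractile genes, the genes with the highest ratios were of several kinds, and some had their level outside the core members. Aoc3, a vascular amine oxidase (chr11:101330605-101341938, plus strand), was at 584 (522 to 650.2) CPM in WT and 528 (476 to 583) in Bmx-CreER Wls selected cells, 61.8 (51.6 to 74.2) and 89.6 (73.4 to 110.0) times other cells (135.4 in Bmx-CreER Wls core members). Abcc9 was at 879 (804 to 959.8) and 668 (609.8 to 729) CPM, ratios of 44.4 (38.9 to 50.7) and 59.1 (50.7 to 69.1) (67.7 and 90.3 in core members, which it helped to choose). Nr2f2, a nuclear receptor known from venous endothelium, was at 584 (522 to 650.2) and 472 (424 to 524) CPM, ratios of 15.4 (13.5 to 17.6) and 16.6 (14.6 to 18.98) (25.1 in Bmx-CreER Wls core members). Endothelial cells held it too, at 342 and 293 CPM. Mustn1, a small protein of the musculoskeletal system, was at 329 (283 to 379.8) and 442 (395 to 493) CPM, ratios of 16.2 (13.5 to 19.3) and 27.3 (23.4 to 31.8). Parm1 had ratios of 11.5 (9.36 to 14) and 13.2 (10.9 to 16.0) (20.1 in Bmx-CreER Wls core members), and Atp1b2, a subunit of the sodium pump, 9.41 (8.24 to 10.7) and 9.99 (8.93 to 11.2) (15.2, likewise). Hopx (chr5:77086988-77115121, minus strand) was at 308 (264 to 357) and 228 (195 to 266) CPM, ratios of 9.45 (7.95 to 11.2) and 9.18 (7.68 to 10.9). Hbegf, a ligand of the EGF receptor, Tspan15, a tetraspanin, and Col22a1, a collagen of tissue junctions, also ranked among these genes, with ratios of 17.5 (15.7 to 19.6), 11.4 (9.53 to 13.5) and 10.7 (8.94 to 12.7) in WT and 25.3 (22.9 to 28.0), 13.1 (11.2 to 15.3) and 14.3 (12.1 to 16.9) in Bmx-CreER Wls. In core members their ratios were only 0.509, 1.30 and 0.196 in WT and 1.64, 1.45 and 0.209 in Bmx-CreER Wls, so their level came from the members without a class gene.

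**Figure D3:**
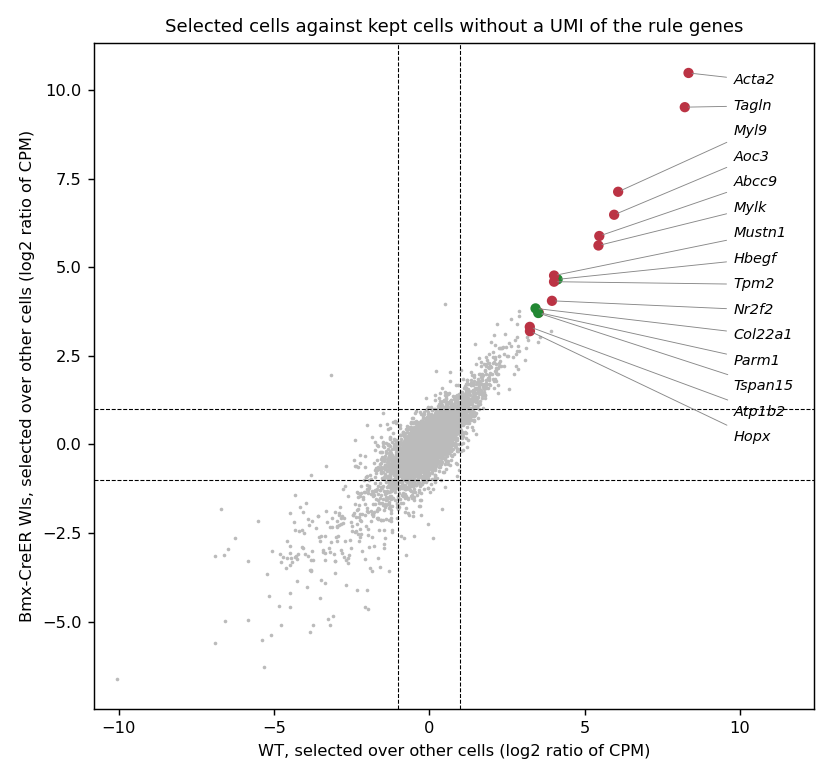
Log2 ratio of each gene in selected cells against other cells, WT on the horizontal and Bmx-CreER Wls on the vertical axis, with dashed lines at 2-fold. Named genes are red, and green marks Hbegf, Tspan15 and Col22a1, whose level lay in members without a class gene.

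The 62 members without a class gene in each library were low in contractile transcripts relative to core members. Their contractile list still summed to 4799.6 CPM in WT and 3597.6 CPM in Bmx-CreER Wls, against 2190.6 and 1773.4 CPM in other cells. Tagln2, the exception named above, had the largest part in these sums, and without it and Myh11 they were 3102 and 2171 CPM against 1323 and 1187 CPM in other cells and 18494 and 24528 CPM in core members. Rgs5 was at 0 in 10 of the 62 in each library. The label of these cells was not settled by either value. Rgs5 alone had chosen 43 of them in WT and 52 in Bmx-CreER Wls, with a median sum of 5 UMIs in both. Acta2 was at 0 UMIs in 54 of 62 WT and 59 of 62 Bmx-CreER Wls cells and stood at 196 (138 to 268) and 27.6 (11.1 to 56.8) CPM, against 3113 (2936 to 3298) and 5042 (4844 to 5247) CPM in core members. Mylk was at 154 (104 to 220.3) and 39.4 (18.9 to 72.5) CPM, against 2828 (2659 to 3004) and 2850.3 (2702 to 3005) CPM in core members. Of 2218 genes measured, 176 were at least 2 times as high and 173 at most 0.5 times as high as in core members of both libraries. The genes named from this comparison were chosen after their values were seen. Hbegf was at 2382 (2169.8 to 2609) and 2668 (2470.5 to 2876) CPM in these cells and 24.3 (11.1 to 46.0) and 62.3 (42.0 to 88.9) CPM in core members. Col22a1 was at 844 (719.5 to 983) and 819.6 (712 to 939) CPM against 5.39 (0.653 to 19.5) and 4.15 (0.503 to 15) CPM. Clic5, a chloride channel family protein of the cell cortex, was at 1518 and 812 CPM against 2.69 and 0 CPM. Sema3c, a secreted guidance cue, was at 1013 and 1151 CPM against 18.9 and 24.9 CPM. Btc, another EGF receptor ligand, was at 262 and 236 CPM and at 0 in core members of both libraries. Pdgfra, the PDGF receptor of fibroblasts, was at 581 (479 to 699) and 331 (264 to 409.8) CPM against 45.8 (26.7 to 73.4) and 35.3 (20.6 to 56.5) CPM, and Col1a1, the fibrillar collagen of fibroblasts and bone, at 13473 and 8089.7 CPM against 4539 and 3739 CPM. Olfr558, an olfactory receptor, marked the core members instead, at 361 and 367 CPM against 5.14 and 0 CPM.

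Per cell, the Col22a1 transcripts and the Acta2 transcripts were nearly exclusive. Col22a1 occurred with Hbegf in 35 WT and 40 Bmx-CreER Wls selected cells, with Acta2 in 1 and 2 cells and with Abcc9 in 2 and 0. Acta2 in turn occurred with Abcc9 in 65 and 61 cells.

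Shares of cells with a UMI were far above those in chondrocytes, which had median depths of 2762 UMIs in WT and 2800 in Bmx-CreER Wls. These chondrocytes were chosen to be without a UMI of the rule genes, so low shares of mural genes in them are a description. Acta2 was detected in 47.8% (40.2 to 55.4) of selected WT cells and 51.1% (43.7 to 58.5) of selected Bmx-CreER Wls cells, against 0.524% and 0.187% of chondrocytes. At 1000 UMIs per cell its shares in selected cells were 36.0% and 43.8%. Kcnj8 was detected in 35.4% (28.4 to 42.9) and 27.4% (21.2 to 34.4) of selected cells, against 0.0437% and 0.0800% of chondrocytes, and in 17.98% and 10.3% of selected cells at 1000 UMIs. Abcc9 was detected in 58.4% (50.8 to 65.8) and 50% (42.6 to 57.4), against 0.0873% and 0.213% of chondrocytes. Among the channel genes the shares were lower in Bmx-CreER Wls, with intervals that overlapped.

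The pericyte list had 8 of 24 genes measured, and 4 of them were higher in the selected cells of both libraries, with a median ratio of 2.56 in WT and 3.17 in Bmx-CreER Wls. Besides Abcc9 these were Mcam, the adhesion molecule CD146, Ndufa4l2, a mitochondrial protein of hypoxic and perivascular cells, and Ebf1, a transcription factor of stromal and B cells. Mcam was at 414 (362 to 470.4) and 480.0 (431 to 533) CPM, ratios of 8.77 (7.57 to 10.1) and 8.25 (7.32 to 9.29), and its level in endothelial cells was similar, at 439.5 and 513 CPM. Listed genes with under 500 UMIs were not counted. Among them Pdgfrb, the receptor of endothelial PDGF-B, was at 232 (194 to 275) and 208 (176 to 244) CPM, 18.4 (14.8 to 22.8) and 20.5 (16.6 to 25.3) times other cells. Higd1b, a mitochondrial protein known as a pericyte marker, had 28 and 41 UMIs in selected cells and only 1 and 0 in all other cells. Not all pericyte genes lay on this side: Cspg4, the proteoglycan NG2, was at 359 and 481 CPM, ratios of 0.684 (0.592 to 0.786) and 0.612 (0.549 to 0.680).

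Receptors that set vessel tone were present at low levels. In the list of vasoactive receptors and second messengers, 23 of 25 genes besides Rgs5, a gene of the rule, were detected in each library and 0 of the 5 measured genes were higher in both (1 was lower), with medians of 0.582 in WT and 0.854 in Bmx-CreER Wls. Under the count minimum, Ednra, the endothelin receptor of smooth muscle, was at 184 (150.3 to 223) and 162 (134 to 194) CPM, ratios of 29.0 (22.2 to 37.8) and 25.9 (20.1 to 33.3). Adra2a, an adrenergic receptor, was at 212 (176 to 254) and 128 (103 to 156) CPM, ratios of 191 (121 to 312) and 289 (150.3 to 622). Agtr1a, the angiotensin receptor, was at 101 (76.4 to 131) and 80.2 (61.1 to 104) CPM. Gucy1a3 and Gucy1b3, the subunits of the guanylate cyclase that nitric oxide activates, had ratios of 32.6 (24.6 to 43.1) and 52.2 (36.6 to 74.8) in WT and 66.5 (48.7 to 91.6) and 66.3 (44.6 to 100.1) in Bmx-CreER Wls. The genes with a ratio given here were many times higher in the selected cells than in other cells of both libraries. They were named from the genes under the count minimum, the rest of which were not tallied.

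Among genes that reached the count minimum, signalling lists had smaller shares of high genes than the contractile and pericyte lists. This minimum is set over both groups of cells, so it can leave out genes found mainly in the selected cells, such as Heyl. The Notch list had 2 of 5 measured genes higher in selected cells (medians 1.70 and 1.82): Jag1, a ligand, at 106 (81.0 to 137) and 155 (128 to 186) CPM, and Nrarp, a feedback inhibitor, at 139.7 (111 to 174) and 280.1 (243 to 321) CPM. Heyl, a Notch target of mural cells under the count minimum, was at 169.8 (138 to 207) and 223 (190.2 to 259.8) CPM, ratios of 40.3 (29.8 to 54.5) and 114 (81.7 to 164). The receptor Notch3 is a gene of the rule and is left out here. The PDGF list had 1 of 3 measured genes higher (medians 1.51 and 1.85), Pdgfa, a ligand, at 458 (404 to 517) and 515 (465 to 569.9) CPM. The TGF-beta and BMP list had 2 of 15 higher (medians 1.05 and 1.22), the ligands Tgfb2, at 193 (158 to 233) and 148 (122 to 179) CPM, and Bmp2, at 161 (129.6 to 198) and 204 (173 to 239) CPM. Most of the Bmp2 level lay in the members without a class gene, where it was 329 and 445 CPM, and core members were near the level of other cells. The list of angiopoietin, VEGF and S1P signalling had 2 of 10 higher and 1 lower (medians 1.10 and 1.04), the ephrin ligand Efnb2 and the hypoxia factor Epas1. Epas1 was at 173 (141 to 211) and 184 (154 to 217) CPM, and Efnb2 at 122 (94.95 to 154) and 160.4 (133 to 192) CPM. Efnb2 was higher only through the members without a class gene: core members were at 18.9 and 45.7 CPM, below other cells at 42.9 and 65.5 CPM. Angpt2, an antagonist of the endothelial receptor Tek, was at 127 (99.6 to 160.4) and 87.0 (67.0 to 111) CPM, 22.3 (16.4 to 30.1) and 22.3 (15.9 to 31.2) times other cells.

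Basement membrane genes and their receptors were higher as a group, 10 of 18 measured genes with 2 lower, and medians of 2.89 in WT and 2.82 in Bmx-CreER Wls. Col4a1, a chain of type IV collagen, was at 4706 (4529 to 4889) and 3768 (3629 to 3911) CPM, ratios of 7.06 (6.77 to 7.36) and 6.23 (5.97 to 6.49). Col4a2, its partner chain, had ratios of 6.43 (5.99 to 6.90) and 5.55 (5.17 to 5.94), and Nid1, a linker of laminin and collagen, was at 1176 (1088 to 1269) and 801 (738 to 868) CPM. Endothelial cells held Col4a1 at still higher levels, 5779.9 CPM in WT and 6474 CPM in Bmx-CreER Wls. Itga1, the integrin chain that binds type IV collagen, had ratios of 11.2 (9.18 to 13.6) and 7.37 (6.07 to 8.90). Itga7, the laminin-binding integrin chain of muscle, was under the count minimum, at 240.5 (202 to 284) and 291 (253 to 333) CPM, ratios of 80.1 (58.9 to 110.0) and 95.3 (72.3 to 127). Fibrillar and elastic matrix genes were not higher as a group: 2 of 26 were higher, Col6a3 and Fbn1, 4 were lower, and the medians were 1.01 and 0.987.

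Of the niche factors, 6 of 13 measured genes were higher in the selected cells of both libraries, with medians of 1.76 and 2.43. Kitl, the ligand of the stem cell receptor Kit, was at 264 (223 to 309) CPM in WT and 204 (173 to 239) in Bmx-CreER Wls, ratios of 4.71 (3.95 to 5.59) and 5.66 (4.72 to 6.75), with endothelial cells at 415 and 339.6 CPM. Cxcl12, the chemokine that retains stem cells, was at 623 (559 to 691) and 348 (307 to 393) CPM, ratios of 4.44 (3.96 to 4.96) and 3.45 (3.02 to 3.93). Part of this Cxcl12 lay in 5 WT and 6 Bmx-CreER Wls members with 3 or more Mmp9 UMIs, and the remaining members were at 361.5 and 227.3 CPM. The Cxcl12 level was thus unevenly spread over the members. Kitl was detected in 37.1% (29.97 to 44.6) and 38.7% (31.7 to 46.1) of selected cells, against 1.31% and 1.01% of chondrocytes. Cxcl12 was detected in 34.8% and 39.3% of selected cells, against 7.86% and 8.80% of chondrocytes. Nes, the intermediate filament nestin, was at 180.4 (147 to 219) and 143 (117 to 173) CPM, ratios of 4.36 (3.51 to 5.36) and 4.24 (3.43 to 5.21). The remaining niche genes on the high side were Jag1, Tgfb2 and Pdgfa. Transcripts of adult niche cells were sparse in the selected cells, with 18 and 34 UMIs of Lepr, the leptin receptor, and 2 and 1 of Thpo, thrombopoietin.

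Wnt genes set the selected cells little apart. Of the list of Wnt ligands and secretion, 7 of 18 genes in the tables were detected in WT and 8 of 18 in Bmx-CreER Wls (3 more, Wnt3, Wnt3a and Wnt8b, were in neither table), and 0 of 3 measured genes were higher (medians 0.699 and 0.893). Wnt5a, a ligand of the non-canonical branch, was at 44.2 (28.6 to 65.3) and 44.9 (30.9 to 63.0) CPM, while Wnt2 and Wnt6 were listed at 0 UMIs in selected cells of both libraries. Of the Wnt receptors, targets and antagonists 2 of 15 were higher and 2 lower (medians 1.18 and 0.817). Those higher were the secreted antagonists Dkk2 and Sfrp2, at 206 and 216 CPM in the WT members without a class gene and 205 and 279.8 CPM in Bmx-CreER Wls, while core members held less of both than other cells did. Axin2, a target of canonical Wnt signalling, had 6 and 1 UMIs in all selected cells of WT and Bmx-CreER Wls, too few for a comparison.

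Transcription factors had 5 of 14 measured genes higher and 1 lower (medians 1.67 and 1.59): Ebf1, Ebf3, Nr2f2, Prrx1 and Meox2. Prrx1, a homeobox factor of limb mesenchyme, was at 612 (549 to 680.0) CPM in WT and 479 (429.9 to 531) CPM in Bmx-CreER Wls, and Meox2, a homeobox factor of mesoderm, at 272 (231 to 319) and 239 (205 to 277) CPM. Tbx2, a T-box repressor under the count minimum, was at 138 (109 to 172) and 164 (136 to 197) CPM, ratios of 20.8 (15.5 to 27.7) and 31.0 (23.9 to 40.2). Myocd, the coactivator of serum response factor in smooth muscle, had 7 and 12 UMIs in selected cells and 1 and 1 in all other cells. Of the cell cycle genes 0 of 18 were higher and 1 was lower (medians 0.861 and 0.751). Mki67, a marker of cycling cells, was detected in 20.2% and 18.8% of selected cells against 16.2% and 16.2% of chondrocytes. Of the immediate early and dissociation genes 0 of 12 were higher and 2 were lower (medians 1.17 and 0.939).

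Markers of other cell types were measured in the same selected cells, and their part in the results was not tested. Of 10 endothelial genes 6 were detected in each library, with a sum of 277.7 CPM in WT and 224.3 CPM in Bmx-CreER Wls, of which Esam, an adhesion molecule also known from mural cells, made 238.8 and 193.1. Cdh5 and Pecam1 were at 0 by the rule and Cldn5, a tight junction protein, was at 0 in both libraries. Without these rule genes, Esam was higher than in other cells and 5 of the 7 measured endothelial genes were lower. All 6 stromal genes were detected, with sums of 5807 and 4653 CPM, mostly Col3a1, and 0 of 6 were higher. All 6 chondrocyte genes were detected, with sums of 2625 and 5428 CPM against 44114 and 57502 in other cells, mostly Col2a1, the cartilage collagen, and all 6 were lower. Of this chondrocyte sum 1 WT cell held 52.8% and 1 Bmx-CreER Wls cell 23.3%, and 27 and 37 members had 3 or more such UMIs. Osteoblast genes summed to 122.0 and 111.5 CPM (4 and 6 of 6 detected, led by Ibsp, 2 of 3 measured lower). Tendon genes summed to 254.7 and 439.2 CPM (4 of 5, mostly Fmod, with Kera at 0, 1 of 2 measured higher, Tnmd, and 1 lower).

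Lists of more distant cell types were near 0 in the selected cells, apart from a few members. Skeletal muscle genes summed to 26.5 CPM in WT, led by Pax7 from 1 cell, and 97.9 CPM in Bmx-CreER Wls, mostly Acta1. Of this list 6 and 7 of 10 were detected, with Myog and Ttn at 0. Schwann cell genes summed to 23.0 and 28.6 CPM (2 of 6, mostly S100b, with Sox10 at 0, 1 of 1 measured lower). Haematopoietic genes summed to 7.08 and 21.8 CPM (2 and 4 of 6, led by Laptm5 and Coro1a, with Ptprc at 0, 5 of 5 measured lower). Erythroid genes summed to 21.2 and 12.2 CPM (3 and 4 of 6, led by Hba-a1 and Hbb-bs). Macrophage genes summed to 1.77 and 1.36 CPM (1 of 6, Mrc1, with Csf1r at 0, 1 of 1 measured lower), and megakaryocyte genes to 5.31 and 9.52 CPM (1 and 2 of 4, mostly Itga2b). Osteoclast genes summed to 187.5 CPM in WT and 1687 CPM in Bmx-CreER Wls (4 of 5, mostly Mmp9, with Ocstamp at 0), and 4 of 5 measured were lower in selected than in other cells of both libraries. For the skeletal muscle, erythroid and megakaryocyte lists 0 genes reached the count minimum.

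Muscle-like cells differed from pericyte-like cells by more contractile transcripts and by lower levels of some other genes. Kcnj8, Abcc9 and Myh11 had chosen the classes and are left out of this contrast. Of 745 genes with 50 or more UMIs over both classes, 19 (2.55%) were at least 2 times as high in muscle-like cells of both libraries, and 45 (6.04%) were at most 0.5 times as high. The balance of these counts depends on the minimum, since the pericyte-like class held most of the UMIs in both libraries. With a minimum on the mean of the CPM of both classes, chosen after seeing the data, the counts were 42 and 33 of 730 genes. The median ratio of muscle-like over pericyte-like cells was 0.907 in WT and 0.890 in Bmx-CreER Wls. The muscle-like cells held only 26153 UMIs in WT, against 96339 in Bmx-CreER Wls.

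Contractile genes were higher in muscle-like cells for 7 of 10 measured, with medians of 2.95 in WT and 5.70 in Bmx-CreER Wls. Tagln was at 3747 (3042 to 4567) CPM in muscle-like against 243 (179 to 322) CPM in pericyte-like WT cells, a ratio of 15.4 (10.8 to 22.3). In Bmx-CreER Wls it was at 7515 (6978 to 8083) against 257 (195 to 332) CPM, a ratio of 29.2 (22.4 to 38.9). Acta2 was at 7150.2 (6162 to 8252) against 881 (755 to 1022) CPM in WT and 12664 (11963 to 13395) against 1037 (909 to 1179) CPM in Bmx-CreER Wls, ratios of 8.12 (6.57 to 10.04) and 12.2 (10.6 to 14.1). Both genes were present in pericyte-like cells at a lower level, and in mixed cells in between, with Acta2 at 5391 and 6102 CPM. The Bmx-CreER Wls ratios depended on depth and on the class limit: with members thinned to 1000 UMIs they were 8.15 for Tagln and 6.24 for Acta2, and with all Myh11-positive members, chosen after seeing the data, 18.6 for Tagln. In WT the Tagln ratio was 9.71 without members with other cell type UMIs. Myl9 had ratios of 6.17 (4.40 to 8.63) and 9.88 (7.88 to 12.5) (6.21 thinned or 5.87 with all Myh11-positive members in Bmx-CreER Wls), Tpm2 of 4.78 (3.34 to 6.77) and 7.17 (5.85 to 8.85) (4.57 thinned in Bmx-CreER Wls), and Tpm1, another tropomyosin, of 3.46 (2.78 to 4.27) and 4.99 (4.39 to 5.68). Tagln2 went the other way, with ratios of 0.435 (0.234 to 0.745) and 0.470 (0.329 to 0.658).

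Genes outside the contractile list were also higher in muscle-like cells. Igfbp5, a binding protein of insulin-like growth factors, was at 5162 (4328 to 6109.8) against 1367 (1208 to 1539.8) CPM in WT and 10162 (9535 to 10819) against 452 (369 to 549) CPM in Bmx-CreER Wls, ratios of 3.78 (3.05 to 4.66) and 22.5 (18.3 to 27.8). Its size was unsteady: the WT ratio was 7.91 without members with other cell type UMIs and 2.07 with all Myh11-positive members, and the Bmx-CreER Wls ratio was 11.7 with class limits of 2 UMIs, 10.9 thinned and 13.5 with all Myh11-positive members. Mustn1 had ratios of 6.52 (4.11 to 10.3) and 8.80 (6.08 to 13.0), with 2.85 for all Myh11-positive members in WT and 5.80 thinned in Bmx-CreER Wls. Prkcdbp, the caveolar protein cavin-3, had 4.24 (2.66 to 6.65) and 6.53 (4.84 to 8.89), with 2.34 thinned and 2.64 for all Myh11-positive members in WT. Ptp4a3, a phosphatase, had 3.43 (1.92 to 5.95) and 8.17 (5.92 to 11.5), with 1.92 for all Myh11-positive members in WT. Csrp1, a LIM protein of smooth muscle, had 3.41 (2.25 to 5.08) and 3.52 (2.69 to 4.65), with 5.39 thinned in WT. All of these were higher in muscle-like cells under every alternative run. Nrip2 and Lama5 were under the minimum of 50 UMIs in WT and are not among the counted genes. Nrip2, a nuclear receptor interacting protein named from the Notch list, had 1 pericyte-like UMI in each library, and ratios of 75.5 (10.8 to 3278) and 117 (20.1 to 4716). Lama5, a laminin chain of the basement membrane, had ratios of 41.5 (9.07 to 386) and 58.5 (9.58 to 2403).

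The genes named for pericyte-like cells were of mixed kinds, many with 0 to 4 UMIs in muscle-like cells, so that their ratios are uncertain in size. Mgp, the inhibitor of calcification matrix Gla protein, was at 2733 (2508 to 2974) CPM in pericyte-like against 76.5 (9.26 to 276) CPM in muscle-like WT cells and at 1893 (1718 to 2081) against 197 (119 to 308) CPM in Bmx-CreER Wls. The ratios of pericyte-like over muscle-like cells were 35.7 (9.85 to 296) and 9.60 (6.07 to 16.1). Steap4, a metalloreductase, was at 491 (398 to 599) and 386 (309 to 476) CPM in pericyte-like cells and at 0 UMIs in muscle-like cells of both libraries, at least 4.28-fold and 12.39-fold higher against a floor of 3 UMIs over the class. Thy1, a surface glycoprotein of stromal cells, was at 445 (357 to 549) and 394 (317 to 486) CPM, ratios of 5.83 (1.56 to 48.9) and 38.0 (6.65 to 1518). Pcolce, an enhancer of procollagen cleavage, was at 496 (403 to 604) and 523 (433 to 626) CPM, ratios of 4.32 (1.44 to 21.3) and 12.6 (4.79 to 47.0). Their shared direction in both libraries follows from the way they were named. Emp1, an epithelial membrane protein, was at 521 (426 to 632) and 607 (509.9 to 718) CPM in pericyte-like cells, with 1 muscle-like UMI in each library. Cygb, cytoglobin of pericytes and fibroblasts, was at 501 (407 to 610.1) and 448 (365 to 544) CPM, also with 1 muscle-like UMI each. Vstm4 was at 258 (192 to 339) and 253 (191 to 327) CPM with 0 and 2 muscle-like UMIs, and Zcchc24 at 344 (267 to 436) and 230.5 (172 to 302) CPM with 0 and 4. Slc12a2, the sodium, potassium and chloride cotransporter, was at 258 (192 to 339) and 239 (179.8 to 312) CPM, ratios of 6.75 (1.16 to 272) and 7.69 (2.49 to 38.4). Mmp13, a collagenase, was at 284 and 998 CPM in pericyte-like cells and 0 UMIs in muscle-like cells, but came from 10 selected cells in each library. Set against all Myh11-positive members, the Bmx-CreER Wls ratio of those members over pericyte-like cells was 0.446 for Mgp, 0.302 for Emp1, 0.157 for Cygb, 0.417 for Vstm4, 0.448 for Pcolce, 0.554 for Thy1 and 0.607 for Mmp13.

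**Figure D4:**
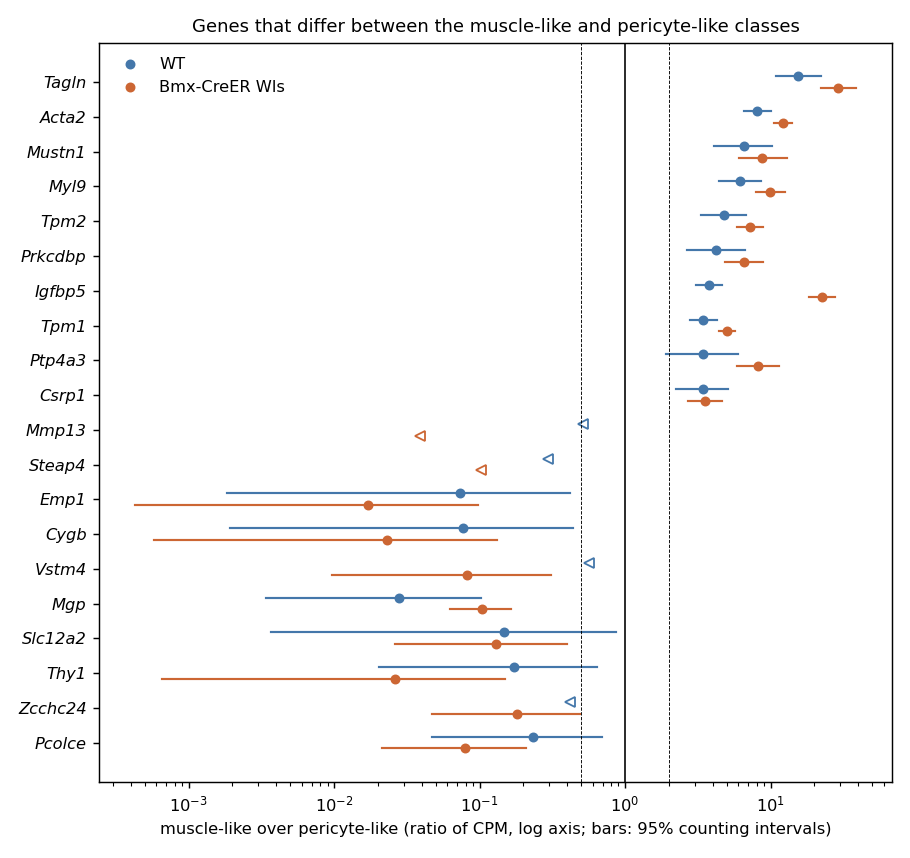
Ratio of muscle-like over pericyte-like cells for named genes on a log axis, WT in blue and Bmx-CreER Wls in orange, with exact 95% intervals and dashed lines at 0.5 and 2. Open triangles stand at the upper end of the interval for genes with 0 UMIs in muscle-like cells.

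Few genes of the other lists separated the classes in both libraries. Of the pericyte list, 0 of 8 measured genes were higher in muscle-like and 1 in pericyte-like cells (medians 0.699 in WT and 1.36 in Bmx-CreER Wls). That gene was Pdgfrb, at 435 (348 to 538) and 412 (333 to 505) CPM in pericyte-like against 153 (41.7 to 392) and 93.4 (42.7 to 177) CPM in muscle-like cells, also the 1 of 2 measured PDGF genes on that side (medians 0.479 and 1.18). Fibrillar matrix had 4 of 13 genes higher in pericyte-like cells (medians 0.752 and 0.215), Mgp, Bgn, Col6a1 and Col6a2. Col6a1, a chain of type VI collagen, was at 2516 and 2545 CPM in pericyte-like against 1071 (711 to 1547) and 114 (57.0 to 204) CPM in muscle-like cells. Basement membrane genes had 2 of 13, Col15a1 and Lamb1 (medians 0.803 and 0.570), niche factors 1 of 5, Cxcl12 (1.42 and 1.71), and transcription factors 1 of 5, Meox2 (0.795 and 0.518). Cxcl12 was at 1098 (957 to 1255) and 696 (591 to 814) CPM in pericyte-like against 344 (157 to 653) and 280.3 (185 to 408) CPM in muscle-like cells. This call rested on 1 pericyte-like cell in each library: without it the ratio of pericyte-like over muscle-like cells was 1.79 in WT and 1.27 in Bmx-CreER Wls, an alternative chosen after seeing the data. Detection of Cxcl12 ran with the levels in WT, in 41.4% of pericyte-like and 33.3% of muscle-like cells. In Bmx-CreER Wls it ran the other way, in 48.3% and 57.7%, and the intervals overlapped in both libraries. Of the cell cycle genes 1 of 6 was higher in pericyte-like cells, Mki67 (medians 1.13 and 0.232), at 440.4 (353 to 543) and 332 (262 to 417) CPM against 191 (62.1 to 446) and 51.9 (16.9 to 121) CPM. The remaining lists had 0 genes past 2-fold in either direction in both libraries: 0 of 4 vasoactive genes (medians 0.882 and 0.633), 0 of 2 Notch genes (0.879 and 1.55), 0 of 2 TGF-beta and BMP genes (0.825 and 0.628), 0 of 1 angiopoietin, VEGF and S1P gene (1.04 and 0.833), 0 of 1 Wnt receptor gene (0.731 and 0.444) and 0 of 7 immediate early genes (1.44 and 1.45). Of other cell type markers, 0 of 1 endothelial gene (1.22 and 0.998), 0 of 1 stromal gene (0.752 and 0.0644) and 0 of 1 chondrocyte gene (0 and 0.502) were past 2-fold in both libraries of the classes. Adra2a, 1 of the measured vasoactive genes and not past 2-fold in WT, was at 359 (281 to 453) and 293 (226 to 372) CPM in pericyte-like against 191 (62.1 to 446) and 20.8 (2.51 to 75.0) CPM in muscle-like cells.

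Between the libraries, some contractile genes were higher in the selected cells of Bmx-CreER Wls embryos. Differences in proteases, some cartilage genes and Cxcl12 depended on which cells were selected, and the genes named on the low side did not reach 2-fold. The comparison asks how mural cells look when arterial endothelium cannot secrete Wnt ligands, and genotype and library cannot be told apart here. Wls (chr3:159839672-159938664, plus strand) was at 189 (155 to 229) CPM in selected WT cells and 159 (132 to 191) CPM in selected Bmx-CreER Wls cells, a ratio of 0.841 (0.641 to 1.10), and at 38.9 (30.2 to 49.3) and 22.9 (16.0 to 31.7) CPM in endothelial cells. In other cells the Wls ratio was also 0.841. Since the 3' tags counted here may lie outside the deleted part of the gene, this level does not check the deletion. Of 4902 genes with 50 or more UMIs, 70 (1.43%) were at least 2 times as high in Bmx-CreER Wls and 26 (0.530%) at most 0.5 times as high, with a median ratio of 0.999. With core members alone the counts were 59 and 29 of 3316 genes, of which 30 and 5 were the same genes.

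Some contractile and Notch genes were higher in the Bmx-CreER Wls cells. Acta2 had a ratio of Bmx-CreER Wls over WT of 1.57 (1.46 to 1.68), Tagln of 1.96 (1.77 to 2.17), Myl9 of 1.33 (1.19 to 1.503) and Smtn, the cytoskeletal protein smoothelin, of 3.43 (1.86 to 6.82). In core members these ratios were 1.62 (1.51 to 1.74), 2 (1.80 to 2.22), 1.38 (1.22 to 1.55) and 3.501 (1.80 to 7.46). Of 21 measured contractile genes Smtn alone passed 2-fold, and the median of the list was 1.201. Others of the list were lower: Cald1 at 0.878 (0.812 to 0.948), Tagln2 at 0.828 (0.7445 to 0.920) and Myl6 at 0.8635 (0.7468 to 0.9987). Mylk was near 1, at 0.985 (0.909 to 1.068). The share of muscle-like cells was higher as well, 5.06% in WT and 13.98% in Bmx-CreER Wls (8 of 146 and 13 of 136 without members with other cell type UMIs), and its part in the ratios was not tested. Within pericyte-like cells Acta2 was at 881 and 1037 CPM and Tagln at 243 and 257 CPM, levels whose intervals overlapped. Among 7 Notch genes (median 1.31) Nrarp, with a ratio of 2.005 (1.54 to 2.63), and Nrip2, with 2.003 (1.36 to 2.99), were higher. Of 20 pericyte genes (median 1.05) Anpep, the surface peptidase CD13, at 2.93 (1.79 to 4.99), and Foxs1, a forkhead factor of pericytes, at 3.19 (1.72 to 6.38), were higher. Pdgfb, the ligand of Pdgfrb, had a ratio of 2.08 (1.17 to 3.87), the 1 gene past 2-fold among 4 PDGF genes (median 1.01). Nrarp, Nrip2 and Pdgfb were just past the limit and were inside it, at 1.902, 1.87 and 1.88, without the cell that held most of each. The genes that chose the cells had ratios of 0.620 (0.588 to 0.653) for Rgs5, 0.819 (0.747 to 0.899) for Notch3 and 1.75 (1.46 to 2.12) for Myh11, given as a description. Those that chose the classes had 0.643 (0.482 to 0.856) for Kcnj8 and 0.759 (0.669 to 0.862) for Abcc9.

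The highest ratios belonged to proteases and cartilage genes. Few cells carried Mmp9 (9 in each library), Mmp13 (10 in each) and Matn1 (6 in WT and 12 in Bmx-CreER Wls), while Acan was found in 18 and 49 cells. Mmp9, a gelatinase of osteoclasts and of remodelling matrix, was at 101 (76.4 to 131) CPM in WT and 1623 (1533 to 1718) CPM in Bmx-CreER Wls, a ratio of 16.1 (12.3 to 21.4), but 1 Bmx-CreER Wls cell held 846 of its 1194 UMIs. Without that cell the ratio was 4.76. It was 0.667 with a rule threshold of 2, 0.378 with a threshold of 5, 8.01 without members with other cell type UMIs, 10.6 as a mean over cells and 4.86 (3.65 to 6.58) in core members, so its direction depended on the rule threshold. Mmp13 was at 341 (295 to 393) and 1788 (1693 to 1887) CPM, a ratio of 5.24 (4.5 to 6.12), with 67.1% of its Bmx-CreER Wls UMIs in the same cell. Without that cell it was 1.75, with a threshold of 5 it was 0.718, with a threshold of 2 it was 1.21, without members with other cell type UMIs 2.53, as a mean over cells 3.07 and in core members 4.88 (3.71 to 6.52). Mmp9 itself made 57 of the 106 WT and 1194 of the 1241 Bmx-CreER Wls UMIs of the osteoclast list. Of the other osteoclast genes Ctsk was at 79.6 and 58.5 CPM, Acp5 had 3 and 2 UMIs, Atp6v0d2 had 1 and 2 UMIs, and Ocstamp was at 0.

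Cartilage genes were Matn1, a matrilin, Acan, the proteoglycan aggrecan, and Col11a2, a fibril collagen. Matn1 was at 33.6 (20.2 to 52.5) CPM in WT and 386 (342 to 434) CPM in Bmx-CreER Wls, a ratio of 11.5 (7.22 to 19.4), with 92.3% of the Bmx-CreER Wls UMIs in 3 cells. It was 1.49 at a threshold of 2, 0.983 at a threshold of 5, 0.902 without members with other cell type UMIs, 7.61 without the cell that held most, 20.4 without the top 5% of doublet scores and 5.34 in core members. Acan was at 108 (82.5 to 139) and 469 (421 to 521) CPM, a ratio of 4.35 (3.30 to 5.81), with 2.82 and 2.45 at thresholds of 2 and 5 and 2.72 in core members. Col11a2 was at 97.3 (73.3 to 127) and 336 (295 to 380.4) CPM, a ratio of 3.45 (2.57 to 4.71), with 1.97 and 1.23 at these thresholds, 1.202 without members with other cell type UMIs and 1.47 in core members. The chondrocyte list, which holds Matn1 and Acan, had 5 of 6 genes past 2-fold (median 2.77) and a sum of 2625 CPM in WT and 5428 CPM in Bmx-CreER Wls, with Col2a1 the most abundant gene and none at 0. In core members its other genes were not past 2-fold, with ratios of 0.7505 for Col2a1, 1.005 for Col9a1, 1.23 for Hapln1 and 1.63 for Col9a3, and in all selected cells Col9a1 and Hapln1 were at 1.905 and 1.75 without the cell that held most of each. Chondrocytes themselves were 39.9% of kept WT cells and 56.7% of kept Bmx-CreER Wls cells. The part of these values in the ratios was not tested. Sox9, the chondrocyte factor, had a ratio of 2.16 (1.62 to 2.92) in all selected cells and 0.997 (0.623 to 1.61) in core members. Acta1, the skeletal muscle actin, had 3 UMIs in WT and 53 in Bmx-CreER Wls, the latter in 7 muscle-like cells, a ratio of 13.6 (4.40 to 68.0) (7.99 without the cell that held most), while Myog and Ttn were at 0.

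On the low side in Bmx-CreER Wls were Clic5, Cxcl12, Tmem2, Postn and Ogn, of which 0 were past the limit of 0.5. Cxcl12 was at 623 (559 to 691) CPM in WT and 348 (307 to 393) CPM in Bmx-CreER Wls, a ratio of 0.559 (0.474 to 0.659), with 28.7% and 30.5% of its UMIs in 1 cell of each library. It was 1.45 without members with other cell type UMIs, so its direction rested on those members. Clic5 had a ratio of 0.535 (0.446 to 0.641), and all but 1 of its UMIs in WT lay in members without a class gene, so that no ratio could be given for core members. Tmem2, a hyaluronidase of the cell surface, had a ratio of 0.575 (0.442 to 0.747). Postn, the matrix protein periostin, was at 459.9 (406 to 519) and 268 (232 to 308) CPM, a ratio of 0.583 (0.481 to 0.704), with 1.04 at a rule threshold of 2, and other cells had a ratio of 0.529. Ogn, the small proteoglycan osteoglycin, had a ratio of 0.596 (0.466 to 0.761) in all selected cells and 0.819 (0.595 to 1.13) in core members. Kitl, the other niche factor, had a ratio of 0.774 (0.613 to 0.977).

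**Figure D5:**
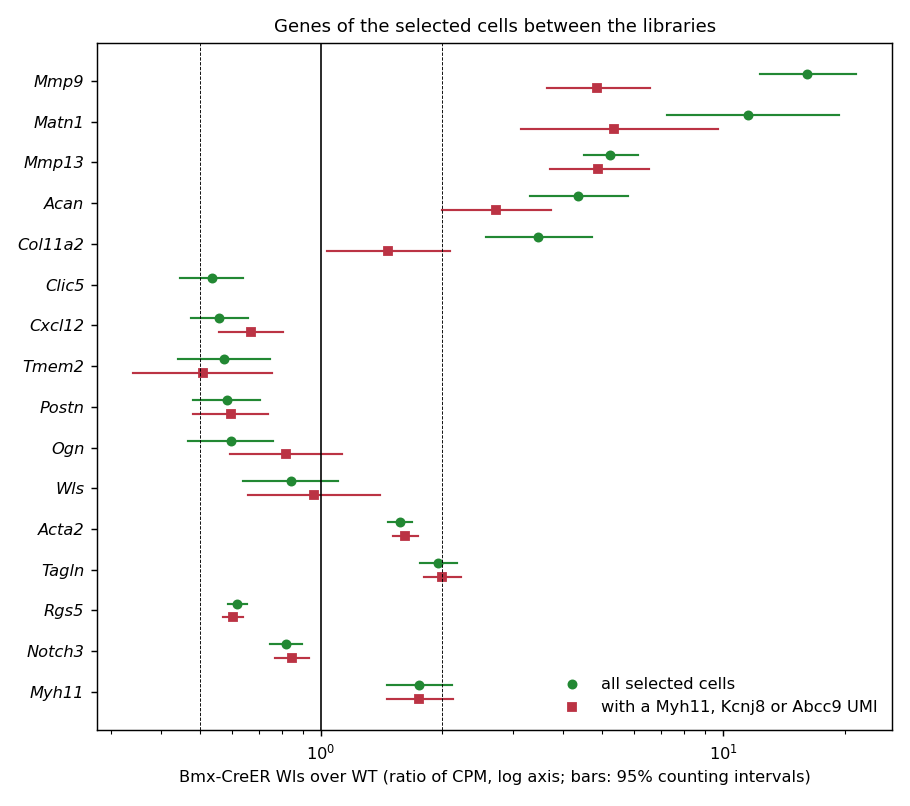
Ratio of Bmx-CreER Wls over WT on a log axis with exact 95% intervals, in all selected cells (green) and in core members (red squares). Mmp9, Matn1 and Mmp13 lie highest, and their values rest on few cells.

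The other lists moved little between the libraries. Of 14 TGF-beta and BMP genes 0 were higher and 1 lower (median 0.769), Id4, an inhibitor of basic helix-loop-helix factors, at 0.446 (0.287 to 0.684). Of 17 cell cycle genes 0 were higher and 1 lower (median 0.863), the replication factor Mcm3, at 0.480 (0.260 to 0.866). Of 18 transcription factors Foxs1 and Sox9 were higher and 0 lower (median 0.901). Past 2-fold were 0 of 20 basement membrane genes (median 0.897), 0 of 26 fibrillar matrix genes (0.837), 0 of 16 niche factors (0.851), 0 of 13 vasoactive genes (0.994), 0 of 10 angiopoietin, VEGF and S1P genes (0.828), 0 of 2 Wnt ligand and secretion genes (0.928), 0 of 16 Wnt receptors, targets and antagonists (0.9497) and 0 of 11 immediate early genes (0.963). Among markers of other cell types, 0 of 6 stromal genes (0.648), 0 of 1 endothelial gene (0.809), 0 of 1 osteoblast gene (0.619) and 0 of 2 tendon genes (1.75) passed 2-fold in the selected cells, while the 1 measured skeletal muscle gene, Acta1, and 1 of 2 osteoclast genes, Mmp9, did. The Schwann, haematopoietic, erythroid, macrophage and megakaryocyte lists had 0 genes with enough UMIs for this comparison.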

How the data were processed

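UMI counts per cell barcode and gene from 2 whole-transcriptome libraries (WT and Bmx-CreER Wls, 1 each) were used as the authors deposited them. Per the labels and methods these counts came from UMI-tools 1.0.1, STAR 2.7.1a and featureCounts 1.6.4 on mm10. Barcodes were kept at over 200 but under 5000 genes, with mitochondrial UMIs below 30%, and doublets were kept, since none were removed before the cells were selected. UMIs were summed over each group of cells and divided by the group's total. A gene was measured with 500 UMIs (selected against other cells) or 50 UMIs (classes, libraries) over both groups, and called past 2-fold. With 1 library per genotype no test was run. Intervals are exact at 95%, and 0 UMIs was given a floor of 3 counts over the group for lower bounds.

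Named genes were the 15 with the highest lower ratio of both libraries among genes higher in selected cells, 10 in each direction between the classes, and 6 in each direction with 200 or more UMIs between the libraries (5 of each are described), beside the genes of 27 lists. Comparison groups of endothelial, stromal, chondrocyte and haematopoietic cells were set by 3 or more marker UMIs. Each of their cells met this for 1 group only and was without a UMI of the rule genes. The members and lists were chosen with earlier results of these data known. Alternatives were other rule thresholds, class limits, thinning, means over cells, TMM scaling, removal by doublet score and removal of members with 3 or more UMIs of the haematopoietic, chondrocyte, osteoblast, skeletal muscle or Schwann list. The core members, all Myh11-positive members, the removal of 1 Mmp9 cell, the removal of the top cell of each called gene and a minimum on the mean CPM of both classes were added after seeing the data. The steps were checked on simulated data. Tools were scanpy 1.11.5 for doublet scores, edgeR 4.0.16 under R 4.3.3 for TMM, scipy 1.17.1 for intervals, and Python 3.11.15 with pandas 2.3.3, numpy 2.4.6 and matplotlib 3.10.9 for the rest, with positions from GENCODE vM21 and promoters from RefSeq.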

Additional observations from a re-analysis of the deposited data

Results flagged for a closer look

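Cdk1, a kinase of the cell cycle, went opposite ways in the libraries between the classes of selected cells. Its ratio of muscle-like over pericyte-like cells was 2.08 (1.12 to 3.67) in WT, from 16 and 58 UMIs, and 0.307 (0.127 to 0.644) in Bmx-CreER Wls, from 8 and 61 UMIs. Hmgb1, a chromatin protein, did the same, with 2.65 (1.30 to 5.11) in WT, from 13 and 37 UMIs, and 0.426 (0.194 to 0.843) in Bmx-CreER Wls, from 10 and 55 UMIs. The difference between the libraries was not tested for either gene, and the WT muscle-like class held 9 cells.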

How the results depend on the processing

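Of 841 values of named genes under the alternatives, 831 stayed on the same side of 1, 653 lay within the main value's interval, 180 moved beyond it and 8 crossed 1 from past 2-fold. The 8 were Hbegf in WT (0.509) and Col22a1 in WT (0.196) and Bmx-CreER Wls (0.209) with core members alone, Mmp9 at rule thresholds of 2 (0.667) and 5 (0.378), Matn1 at a threshold of 5 (0.983) and without members with other cell type UMIs (0.902), and Mmp13 at a threshold of 5 (0.718). Cxcl12 without members with other cell type UMIs (1.45) and Postn at a threshold of 2 (1.04) crossed 1 from within 2-fold. The cause was not tested. The share of selected cells in WT was 4.03% at a threshold of 2, 2.56% at 5, 2.55% without members with other cell type UMIs, 2.35% thinned to 1000 UMIs and 2.02% for core members, and in Bmx-CreER Wls 3.60%, 2.21%, 2.05%, 1.83% and 1.87%. Each of these changes the number of members by construction. Between the libraries, 32 of 3647 genes were higher without members with other cell type UMIs, and 44 genes were lower as a mean over cells. With all Myh11-positive members 35 of 1323 genes were higher in the muscle-like and 23 in the pericyte-like class, and thinned to 1000 UMIs 8 of 191 genes were higher in the pericyte-like class, where fewer genes were measured. With a minimum on the mean CPM of both classes 42 genes were higher in the muscle-like and 33 in the pericyte-like class, of 730 measured, against 19 and 45 of 745 by UMIs. Without the cell that held most UMIs of a gene in the higher group, chosen after seeing the data, Cxcl12 was no longer past 2-fold between the classes (1.79 in WT and 1.27 in Bmx-CreER Wls, pericyte-like over muscle-like). Others that ended inside 2-fold were Myl6 (1.92, WT) in muscle-like cells and Bgn (1.96), Meox2 (1.996) and Tagln2 (1.99) in Bmx-CreER Wls pericyte-like cells, and Bmp2 (1.96, WT) in selected cells. Between the libraries these were Col9a1 (1.905), Hapln1 (1.75), Mmp13 (1.75), Nrarp (1.902), Nrip2 (1.87), Pdgfb (1.88) and Sox9 (1.89), and Mcm3 (0.518) on the low side. No paired analysis was possible because each genotype had 1 library. The muscle-like class of 9 WT cells limits the class ratios, and most receptors and Wnt ligands lay under the count minimum.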

Other observations

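A small group of selected cells carried matrix proteases. Mmp9 had 3 or more UMIs in 5 WT and 6 Bmx-CreER Wls members, and all of them had Notch3 UMIs, while Rgs5 was found in 3 and 0 of them. Myh11 alone chose 0 members, so Notch3 in the cells without Rgs5 follows from the rule and is not a finding. Among the members with 3 or more Mmp9 UMIs, Kcnj8 or Abcc9 was found in 5 and 5, Pdgfrb in 4 and 6, and Mmp13 in 4 and 6. Mmp9 stood at 2042 CPM in the WT and 37795 CPM in the Bmx-CreER Wls cells of this group, against 7.42 and 4.26 CPM in the remaining members. Mmp13 stood at 2196 and 39636 CPM against 252.1 and 93.8 CPM, and Cxcl12 at 6049.6 and 3047 CPM against 361.5 and 227.3 CPM. Single cells made most of several of these levels. In Bmx-CreER Wls 1 cell held 846 of the 1191 Mmp9 and 882 of the 1249 Mmp13 UMIs of this group. Of its Cxcl12 UMIs 1 cell held 101 of 157 in WT and 78 of 96 in Bmx-CreER Wls. Mmp14, a protease anchored in the membrane, stood at 732.1 and 4094 CPM against 431.9 and 441.8 CPM. Acp5, the osteoclast phosphatase, and Ptprc, the pan-leukocyte CD45, were at 0 UMIs in these cells, which does not show that they are absent at this depth. This group was chosen after its values were seen.

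The 13 WT and 7 Bmx-CreER Wls cells that met the mural sum but carried Cdh5 or Pecam1 UMIs had a median of 9 and 6 UMIs of these endothelial genes. Rgs5 stood at 2075 and 2228 CPM in them, Notch3 at 564.8 and 936.4 CPM, and Abcc9 at 736.7 and 1033 CPM. Kdr, the VEGF receptor of endothelium, stood at 515.7 and 839.5 CPM in the same cells, and Acta2 at 920.8 and 96.9 CPM. Whether these barcodes held more than 1 cell was not tested. Doublet scores called 38 WT and 0 Bmx-CreER Wls cells of all kept cells, and the top 5% of scores held 16 and 21 of the selected cells.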
